A study of Capra hircus with 40 samples.

Results

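The genes described here are 33 genes of the goat germ line and of meiosis, taken by their RefSeq symbols from a gene-level table of read counts with 30049 rows. All 33 had a row. They are proteins that handle RNA in germ cells (DAZL, DDX4, TDRD15), factors of entry into meiosis (STRA8, MEIOC), cohesins and chromosome axis proteins (REC8, RAD21L1, SMC1B, STAG3, SYCP2, SYCP3, HORMAD1, HORMAD2), parts of the synaptonemal complex (SYCP1, SYCE1, SYCE2, SYCE3, TEX12), factors of DNA break formation (SPO11, MEI1, MEI4, ANKRD31), of strand exchange (DMC1, MEIOB, SPATA22) and of crossover formation (MSH4, MSH5, HFM1, TEX11, MLH3), and the proteins that tie telomeres to the nuclear envelope (MAJIN, TERB1, TERB2).

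RNA was measured in bulk in ovaries and uteri of untreated female Jining gray goats, a Chinese breed, kept on a single farm. The ovary and the uterus were each taken at day 1 and at months 2, 4 and 6 of life, with 5 libraries per organ and age, 40 in all. The labels number the individuals 1 to 5 in each group and do not say whether an ovary and a uterus of the same number came from the same goat. No more is said of the individuals, so p-values measure the spread between these libraries, which may in part be technical.

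In female mammals the germ cells enter meiosis before or around birth. Homologous chromosomes are held along an axis of cohesin and axis proteins, are cut by SPO11, pair, and are zipped together by the synaptonemal complex, while crossovers are made from some of the cuts. The oocytes then rest in late prophase inside follicles for months or years, and many are lost as follicles die. The uterus holds no germ line, so its libraries give the level at which each gene was counted in an organ without oocytes.

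Library totals ran from 31925520 to 62703770 counts. Levels are given as counts-per-million of a library total (CPM). They depend on gene length, so they are compared between libraries and never between genes. Library 3 of the ovary at day 1 stood apart from its group. The summed level of 10 granulosa cell markers was 6.55 CPM there, against 66.8 to 1109 CPM in the other day 1 ovaries, with CYP19A1 at 0. The summed level of 7 adipocyte markers was 3149 CPM there, against 14.8 to 20.9 CPM in those 4 libraries. Library 5 of the uterus at month 4 had 39.5 CPM summed over 10 uterus markers, against 356 to 542 CPM in the other uteri of that age, with the gland factor FOXA2 at 0. Several results that rest on the day 1 library are given with and without it, and the others with it alone. In a bulk library, fewer germ cells and less RNA per germ cell cannot be told apart.

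Between the organs, with all libraries, each member that passed the test was higher in the ovary. A gene was called at an adjusted p under 0.05 (edgeR's quasi-likelihood test with Benjamini-Hochberg adjustment over all genes tested) if its log2 fold change was also 1 or more in size. Of 28 members with enough counts to be tested, 14 were called higher in the ovary at day 1, where 10.3% of all genes tested were. At month 2 there were 14, against 9.79% of all genes. At month 4 there were 9, against 6.92%, and at month 6 there were 9, against 6.05%. In all, 17 members were called at 1 or more ages. DAZL, TDRD15, SMC1B, SYCP3, SYCP1, SPATA22 and TEX11 were called at all 4. The 11 tested members called at no age were REC8, SYCP2, HORMAD1, TEX12, MEI4, ANKRD31, MEIOB, MSH4, HFM1, MLH3 and MAJIN. Without ovary day 1 library 3, 16 members were called at day 1, with SYCP2 and MEI1 added, where 11.3% of all genes were called higher in the ovary. Without that library and uterus month 4 library 5 together, 17 members were called higher in the ovary at day 1 (11.2% of all genes), 15 at month 2 (10.4%), 12 at month 4 (8.57%) and 11 at month 6 (6.99%), and ANKRD31 was called lower at month 2. The day 1 count was 8 with the individual's number as a replicate block (7.25% of all genes) and 5 in a fit on the day 1 libraries alone (4.12%). The month 4 count was 3 in a fit on the month 4 libraries alone (2.17%) and 4 with limma-voom (2.52%), which called 3 at month 6 (3.47%).

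**Figure D1:**
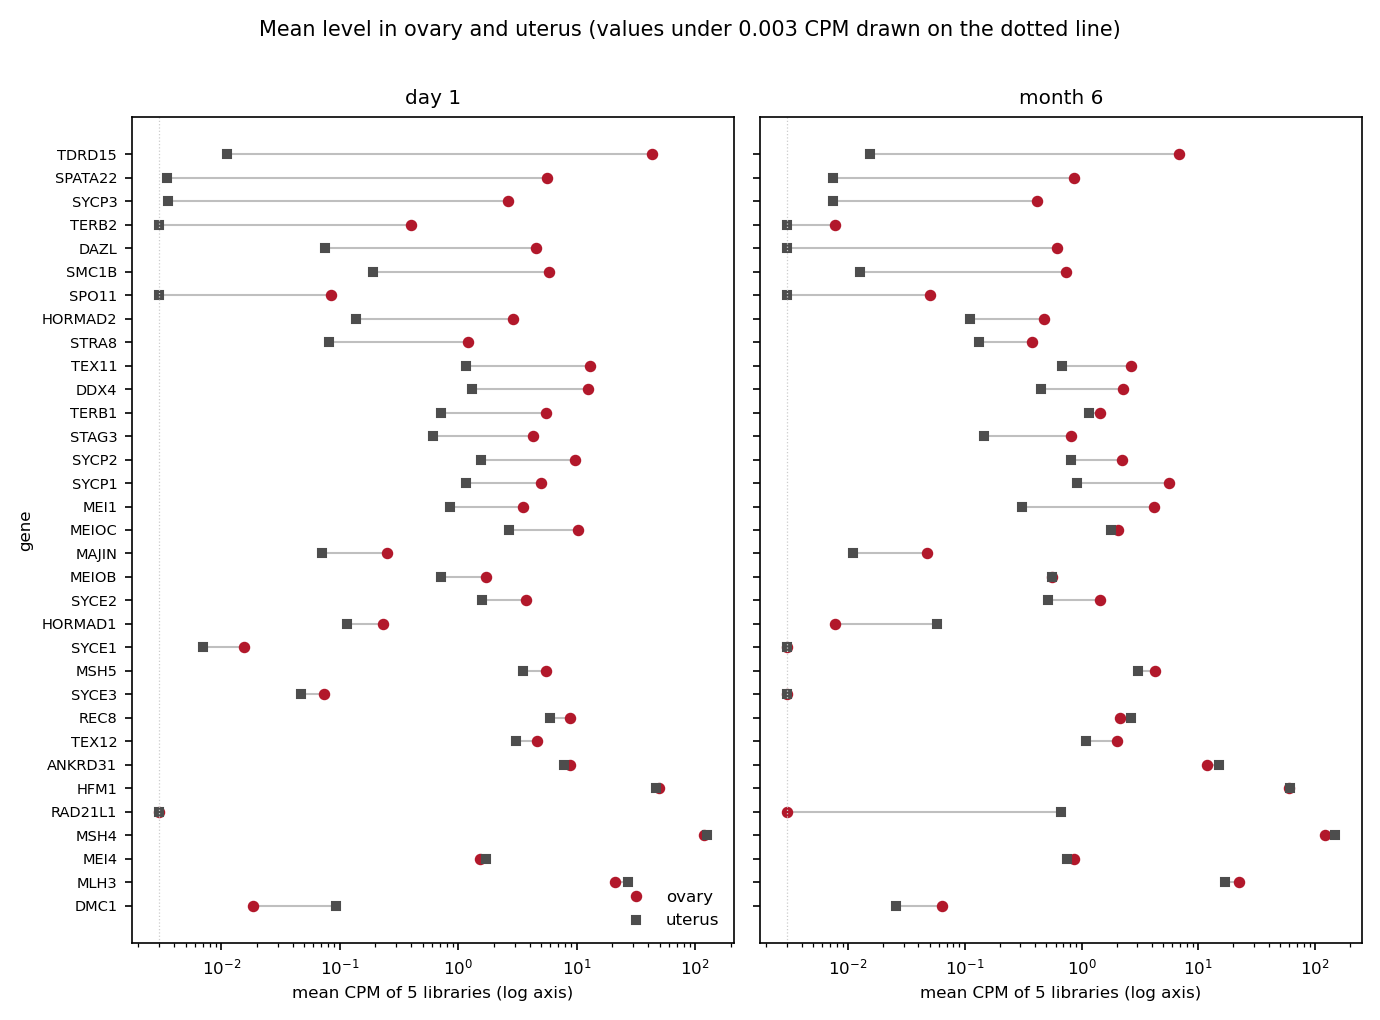
Mean level of each of the 33 genes in the ovary (red circles) and the uterus (grey squares) at day 1 and month 6, in CPM on a log axis, 5 libraries per mean, with genes ordered by their ratio at day 1. At day 1 the ovary stands far to the right for TDRD15 (43.3 CPM, against 0.0111 CPM in the uterus), and the 2 organs lie close together for MSH4 (118 and 125 CPM); levels are not comparable between genes.

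Across age within the ovary, most members had fitted values below 0 for the older ovaries, and with all libraries no member passed the test. For month 6 over day 1, 27 members were tested and 21 had a log2 fold change below 0. Their median was -1.94, while the median over all genes tested was -0.03. The count called was 0 of 27, with 0.0763% of all genes called. At an unadjusted p under 0.05 there were 16 of the 27, against 14.3% of all genes. DESeq2 called 3 members (DDX4, MEIOC and TEX11) and 3.33% of all genes, and limma-voom called 0 members and 6 of all 19671 genes. Without day 1 library 3, edgeR called DDX4, MEIOC and TEX11, all lower at month 6, where 1.44% of all genes were called lower.

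The steps between neighbouring ages were each smaller. The members' median log2 fold change was -0.97 for month 2 over day 1, -0.23 for month 4 over month 2 and -0.42 for month 6 over month 4. It was -0.87 for month 6 over month 2. No member was called by edgeR, DESeq2 or limma-voom in any of these 4 comparisons. Over all genes, edgeR called 0.00508% for month 2 over day 1 and 0% in each of the other 3. Of 19671 genes, DESeq2 called 44 for month 2 over day 1 and 24 for month 4 over month 2. It called 4 for month 6 over month 4 and 16 for month 6 over month 2. Limma-voom called 1 gene for month 2 over day 1 and 0 in each of the other 3. At an unadjusted p under 0.05 in edgeR's test there were 0 members in 3 of the comparisons and 1, TERB2, for month 6 over month 4. The shares of all genes at that threshold were 7.56% for month 2 over day 1, 8.9% for month 4 over month 2, 2.64% for month 6 over month 4 and 5.15% for month 6 over month 2. These comparisons share libraries, so their medians are not independent of each other.

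Some members had groups that did not overlap. Every month 6 ovary lay below day 1 ovaries 1, 2, 4 and 5 in 8 of the 33 members (24.2%), which were DAZL, DDX4, SMC1B, STAG3, SYCP3, HORMAD1, SYCE2 and MEIOB. Of 25975 genes with a count in the ovary, 4.27% showed this order. HORMAD1 and MEIOB kept it with library 3 included.

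**Figure D2:**
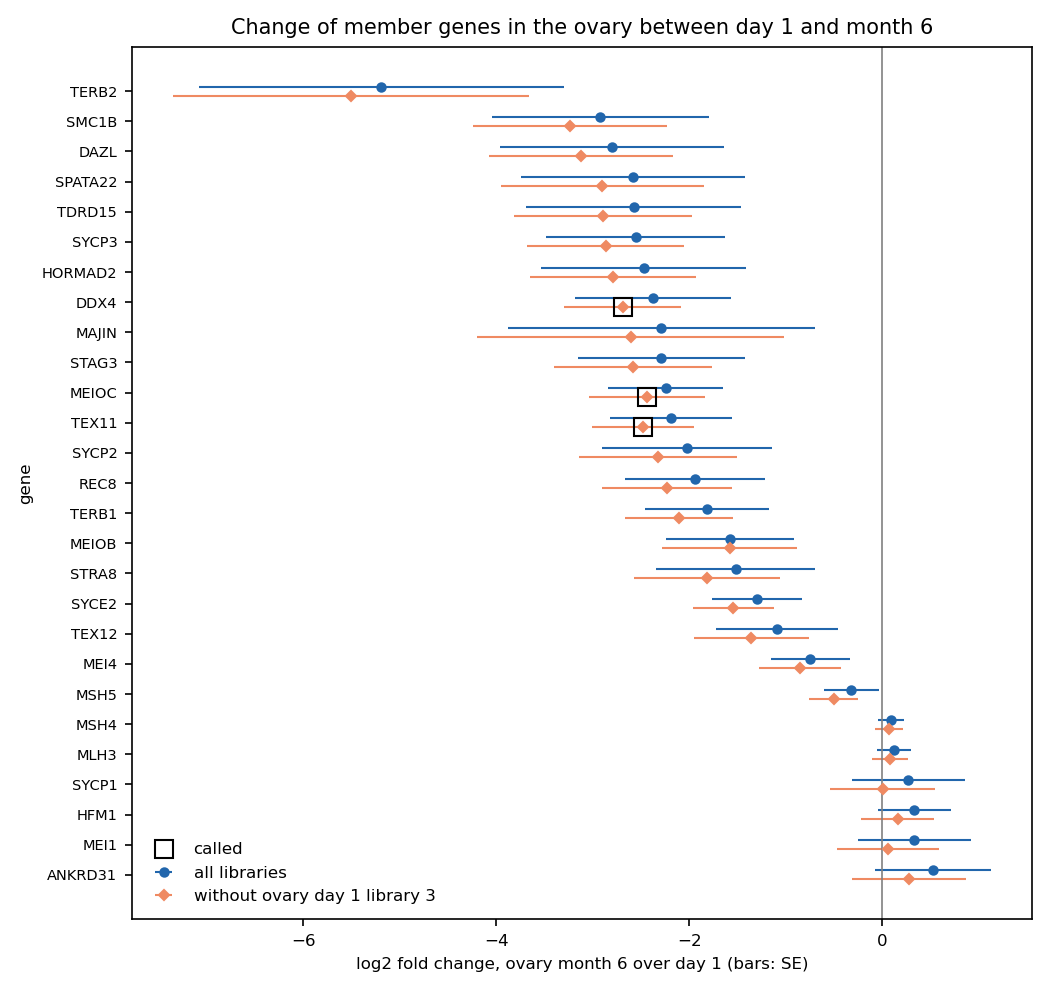
Fitted log2 fold change of the 27 tested members, month 6 over day 1 in the ovary, with bars for the SE, from all libraries (blue circles) and without day 1 library 3 (orange diamonds); black squares mark called genes. Most genes lie left of 0, with 3 squares (DDX4, MEIOC and TEX11) without that library, while MSH4, MLH3, SYCP1, HFM1, MEI1 and ANKRD31 lie near or right of 0. The value of TERB2 depends on the fit's prior count, since its month 6 ovaries hold 2 reads in all.

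Among the germ line RNA proteins, DAZL and TDRD15 were called higher in the ovary than in the uterus at all 4 ages and DDX4 at day 1 and month 2. DDX4 (NCBI gene 102188630), the VASA RNA helicase that marks germ cells, had 15.4, 23.7, 0.14, 6.25 and 17.2 CPM in ovary libraries 1 to 5 at day 1 and 9.96, 1.94, 7.14, 8.06 and 3.05 CPM at month 2. It had 4.4, 5.51, 1.6, 1.9 and 2.27 CPM in the ovary at month 4 and 1.27, 5.93, 1.95, 0.92 and 1.15 CPM at month 6. Day 1 ovaries 1, 2, 4 and 5 all lay above the 5 ovaries of month 6, of which only library 2 exceeded 2 CPM. In the uterus DDX4 was 0.242 to 2.61 CPM at day 1 and 0.188 to 1.06 CPM at month 6. It was called higher in the ovary at day 1 (3.23 ± 0.94 on the log2 scale, SE, edgeR adjusted p = 0.0138) and month 2 (3.66 ± 0.97, edgeR adjusted p = 0.00662), and missed the threshold at month 4 (1.53 ± 0.89, edgeR adjusted p = 0.253) and month 6 (2.31 ± 0.92, edgeR adjusted p = 0.102). The month 4 uteri held 0.658, 0, 0.604, 0.0604 and 3.18 CPM, and library 5, the one low in uterus markers, was the highest. Without it the month 4 difference was 3.30 ± 0.95 (edgeR adjusted p = 0.0176) and was called. Within the ovary the log2 fold change of month 6 over day 1 was -2.37 ± 0.81 (SE, edgeR adjusted p = 0.206), and without day 1 library 3 it was -2.69 ± 0.60 (edgeR adjusted p = 0.0316).

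TDRD15, of the Tudor domain family known from germ line RNA granules, was all but absent from the uterus. It had 50.7, 74.1, 0.0876, 12.8 and 78.8 CPM in the day 1 ovaries and 2.98, 17, 6.6, 2.99 and 4.31 CPM in the month 6 ovaries. All 20 uterus libraries lay at or below 0.0392 CPM, with 8 reads in all. Every ovary of every age, day 1 library 3 included, lay above every uterus. At month 4, where no uterus held a read, the ovary level was at least 805-fold higher than the limit of 3 reads over the uterus group. At day 1 the ratio of the summed reads was 3886, with an exact 95% interval of 1329 to 18847 that covers counting error only.

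DAZL, an RNA-binding protein needed for germ cell development in mice, had 3.95, 10.2, 0, 2.56 and 6.13 CPM in the day 1 ovaries and 0.387, 1.07, 0.57, 0.851 and 0.195 CPM in the month 6 ovaries. The day 1 uteri held 19 DAZL reads, at 0.0711 CPM in library 3 and 0.306 CPM in library 5. That library 5 lay above the lowest month 6 ovary. The uteri of months 2, 4 and 6 held no DAZL read. Against 3 reads over the uterus group, the ovary was at least 142-fold higher at month 2, at least 105-fold higher at month 4 and at least 54.4-fold higher at month 6. In the ovary, month 6 over day 1, DAZL had a log2 fold change of -2.80 ± 1.16 (SE, edgeR adjusted p = 0.274) and TDRD15 of -2.58 ± 1.11 (edgeR adjusted p = 0.293). Without day 1 library 3 these were -3.12 ± 0.96 (edgeR adjusted p = 0.0899) and -2.90 ± 0.92 (edgeR adjusted p = 0.1). The counts of DAZL, TDRD15 and DDX4 were all lower at month 6 in the fit, and with all libraries none of the 3 passed the test.

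**Figure D3:**
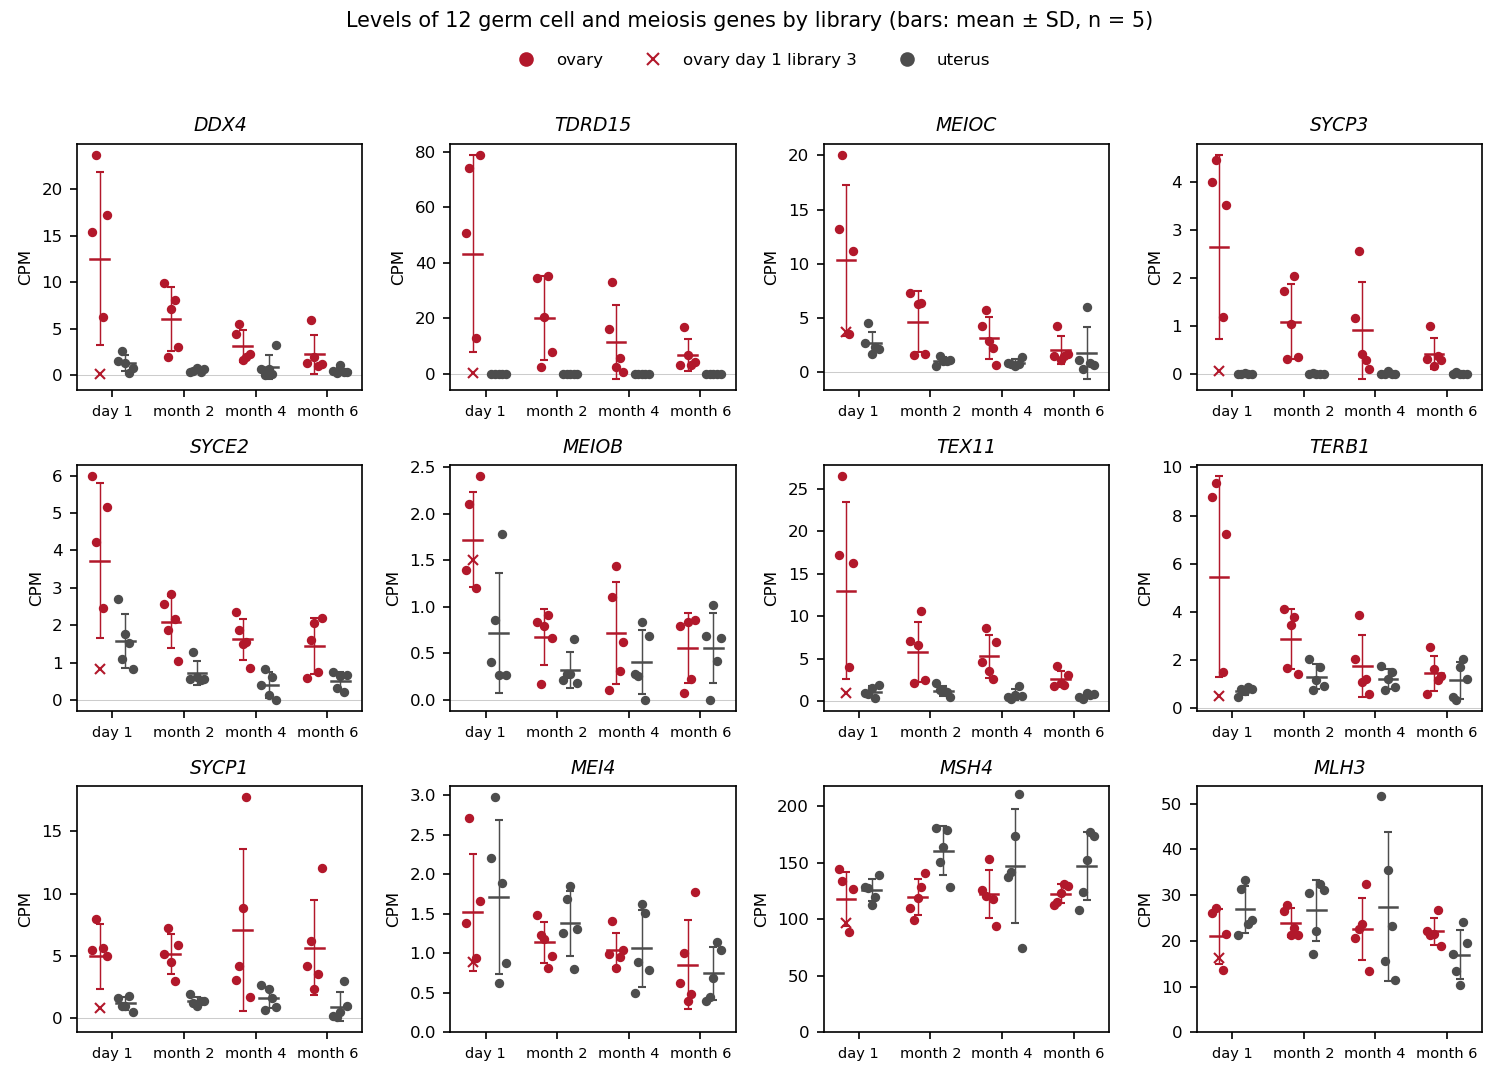
Levels of 12 genes in CPM by library, ovary in red and uterus in grey at each age, with the mean and SD of 5 libraries as bars; the cross is ovary day 1 library 3. DDX4, TDRD15, MEIOC, SYCP3, SYCE2, TEX11 and TERB1 have their highest ovary libraries at day 1, while MSH4 and MLH3 show ovaries and uteri that overlap at all 4 ages. At month 2 most MSH4 uteri (128 to 180 CPM) lie above the ovaries (99.6 to 141 CPM).

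Of the entry factors, both were higher in the ovary at the younger ages. MEIOC (NCBI gene 102188974) keeps germ cells in meiotic prophase in mice. It had 13.3, 20.0, 3.7, 3.56 and 11.2 CPM in the day 1 ovaries and 7.35, 1.62, 6.34, 6.38 and 1.74 CPM in the month 2 ovaries. It had 4.25, 5.73, 2.9, 2.27 and 0.675 CPM in the ovaries at month 4 and 1.52, 4.32, 1.18, 1.47 and 1.72 CPM at month 6. Day 1 ovaries 1, 2 and 5 were the highest of the 20, and the ovaries of the last age overlapped day 1 libraries 3 and 4 through library 2 alone. The uteri held 1.67 to 4.52 CPM at day 1 and 0.281 to 6.03 CPM at month 6. MEIOC was called higher in the ovary at day 1 (1.93 ± 0.60, edgeR adjusted p = 0.0226) and month 2 (2.16 ± 0.61, edgeR adjusted p = 0.0109), and at month 6 the difference was 0.19 ± 0.59 (edgeR adjusted p = 0.905). Leaving out single libraries moved the month 6 value between -0.27, without ovary library 2, and 1.41, without uterus library 3 (edgeR adjusted p = 0.0993), which held 6.03 CPM. At month 4 it had 1.62 ± 0.60 (edgeR adjusted p = 0.0676) and was called without ovary library 5 (1.86, edgeR adjusted p = 0.041) or uterus library 5 (1.98, edgeR adjusted p = 0.0383). The day 1 call was lost on leaving out ovary library 2 (1.55, edgeR adjusted p = 0.0899) or uterus library 3, 4 or 5 (1.80 to 1.88, edgeR adjusted p = 0.0501 to 0.0585). The ovary's month 6 over day 1 value was -2.24 ± 0.60 (edgeR adjusted p = 0.129), and -2.44 ± 0.60 without day 1 library 3 (edgeR adjusted p = 0.0463).

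STRA8, which retinoic acid switches on at the start of meiosis, had 1.66, 2.63, 0.0701, 0.501 and 1.13 CPM in the day 1 ovaries, 0.40 to 1.28 CPM at month 2, 0.39 to 1.26 CPM at month 4 and 0 to 0.706 CPM at month 6, against 0 to 0.394 CPM over the 20 uteri. It was called higher in the ovary at day 1, month 2 and month 4, and not at month 6 (1.49 ± 0.88, edgeR adjusted p = 0.327). The month 4 call was lost without uterus library 1 (2.96, edgeR adjusted p = 0.0572) or 3 (3.15, edgeR adjusted p = 0.0516). In the reference annotation MEIOC overlaps CCDC43 and STRA8 overlaps an unnamed locus, and the sources used here do not state that counting used the strand, so part of their counts may belong to those neighbours.

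The cohesin and axis genes hold the chromosome axis together and mark its unpaired parts. All 6 tested in the ovary (REC8, SMC1B, STAG3, SYCP2, SYCP3 and HORMAD2) had a month 6 over day 1 value between -1.94 and -2.92, with edgeR adjusted p from 0.227 to 0.297, and 0 of the 6 were called. SYCP3 (NCBI gene 100861235), which forms the lateral element of the axis with SYCP2, had 3.99, 4.46, 0.0526, 1.19 and 3.52 CPM in the day 1 ovaries and 1.71, 0.298, 1.03, 2.04 and 0.341 CPM in the month 2 ovaries. It had 1.16, 2.56, 0.409, 0.274 and 0.104 CPM in the ovaries at month 4 and 0.306, 0.989, 0.153, 0.368 and 0.273 CPM at month 6. No month 6 ovary reached 1 CPM, and day 1 ovaries 1, 2, 4 and 5 all exceeded it. The 20 uteri held 6 reads of SYCP3 in all, with a highest level of 0.0525 CPM. From the summed reads, the ovary to uterus ratio was 701 at day 1 (exact 95% interval 125 to 27709, counting error only) and 57.1 at month 6 (15.4 to 478). In the ovary, month 6 over day 1, the log2 fold change was -2.55 ± 0.93 (SE, edgeR adjusted p = 0.227), and -2.87 ± 0.81 without day 1 library 3 (edgeR adjusted p = 0.0702). SYCP3 overlaps CHPT1 in the reference.

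SMC1B and STAG3 are cohesin subunits of meiosis. SMC1B had 10.4, 7.17, 0.0526, 2.91 and 8.94 CPM in the day 1 ovaries and 0.419, 1.74, 0.395, 0.759 and 0.351 CPM in the month 6 ovaries, while the uteri held 0 to 0.80 CPM at day 1 and 0 to 0.0638 CPM at month 6. At both ages the ovaries did not overlap the uteri once ovary day 1 library 3 was set aside. STAG3 had 5.39, 7.86, 0.35, 3.52 and 4.08 CPM in the day 1 ovaries and 0.564, 1.47, 0.921, 0.943 and 0.195 CPM in the month 6 ovaries, and it was called higher in the ovary at day 1, month 2 and month 6. The month 6 call, 2.43 ± 0.79 (edgeR adjusted p = 0.0379), was lost without ovary library 2, 3 or 4 or uterus library 2, 4 or 5 (2.11 to 2.40, edgeR adjusted p = 0.0555 to 0.103). The month 2 call was lost without any one of ovary libraries 1, 3 and 4 and uterus libraries 1, 2, 4 and 5 (1.87 to 2.17, edgeR adjusted p = 0.0709 to 0.115). At month 4 the STAG3 difference was 1.56 ± 0.76 (edgeR adjusted p = 0.164), with library 5 of the ovary at 0.0346 CPM.

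Against the uterus, SYCP2 and REC8 were called at no age and HORMAD2 at 2 ages. SYCP2 ranged over 0.561 to 17.3 CPM in the day 1 ovaries, and a month 2 uterus reached 7.27 CPM. At day 1 SYCP2 missed the threshold (2.57 ± 0.96, edgeR adjusted p = 0.0585) and passed it without ovary library 3 or 4 or uterus library 3 (2.81 to 3.06, edgeR adjusted p = 0.0269 to 0.0473). It also passed at month 2 without the uterus just named (2.84, edgeR adjusted p = 0.0412). REC8, the meiotic kleisin, had 8.83 ± 7.33 CPM in the ovary and 5.91 ± 3.33 CPM in the uterus at day 1 (SD, n = 5 each), and 2.12 ± 1.54 CPM in the ovary and 2.67 ± 1.41 CPM in the uterus at month 6. At month 4 REC8 passed the threshold without ovary library 5 (1.89, edgeR adjusted p = 0.0427). It overlaps IPO4 in the reference. HORMAD2, which watches over unpaired chromosomes, was called higher in the ovary at day 1 (4.32 ± 1.18, edgeR adjusted p = 0.00837) and month 2 (4.43 ± 1.21, edgeR adjusted p = 0.00844), where the uteri lay at 0 to 0.147 CPM.

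RAD21L1 and HORMAD1 did not pass the count filter in the ovary. RAD21L1, the other meiotic kleisin, had 10 reads in the 20 ovaries and 195 in the 20 uteri. Most of the uterus reads lay in library 2 at month 6, with 2.93 CPM, where the next uterus of that age had 0.329 CPM. HORMAD1 had 85 reads in the ovaries and 77 in the uteri. Its day 1 ovaries held 0.365, 0.471, 0.0701, 0.0927 and 0.169 CPM, and 4 of the 5 month 6 ovaries held none.

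Of the synaptonemal complex, 3 members were tested in the ovary and 2 of them had a month 6 over day 1 value below 0. SYCE2 (NCBI gene 102178899), a central element protein, had 5.98, 4.22, 0.841, 2.45 and 5.15 CPM in the day 1 ovaries and 2.57, 1.88, 2.82, 2.15 and 1.04 CPM in the month 2 ovaries. It had 2.36, 1.86, 1.5, 1.55 and 0.848 CPM in the ovaries at month 4 and 0.581, 1.61, 2.06, 0.736 and 2.2 CPM at month 6. All month 6 ovaries lay below day 1 ovaries 1, 2, 4 and 5 and 3 of them above day 1 library 3. The uteri held 0.816 to 2.7 CPM at day 1 and 0.211 to 0.75 CPM at month 6. The ovary was called higher than the uterus at month 4 (1.91 ± 0.61, edgeR adjusted p = 0.0332) and missed the threshold at day 1 (1.22 ± 0.60, edgeR adjusted p = 0.167), month 2 (1.57 ± 0.60, edgeR adjusted p = 0.0611) and month 6 (1.45 ± 0.60, edgeR adjusted p = 0.122). The month 4 call was lost without ovary library 1 or uterus library 1 or 3 (1.68 to 1.89, edgeR adjusted p = 0.0758 to 0.0922), and at month 2 SYCE2 was called without uterus library 2 (1.92, edgeR adjusted p = 0.0405). With age in the ovary, month 6 over day 1, SYCE2 had -1.30 ± 0.47 (edgeR adjusted p = 0.225), and -1.54 ± 0.42 without library 3 (edgeR adjusted p = 0.0615). It overlaps GCDH in the reference.

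SYCP1, the transverse filament that joins the paired axes, was called higher in the ovary at all 4 ages, and its levels at the 4 ages overlapped. It had 5.47, 7.93, 0.771, 5.64 and 4.96 CPM in the day 1 ovaries and 5.14, 7.2, 4.5, 2.95 and 5.88 CPM in the month 2 ovaries. It had 3.05, 4.19, 8.85, 17.7 and 1.71 CPM in the ovaries at month 4 and 4.18, 6.22, 2.32, 3.5 and 12 CPM at month 6. Its highest ovaries were library 4 at month 4 and library 5 at month 6. The uteri lay at 0.0375 to 2.93 CPM over all ages. The ovary was higher by 2.07 ± 0.68 at day 1 (log2, SE, edgeR adjusted p = 0.0295) and by 2.60 ± 0.69 at month 6 (edgeR adjusted p = 0.011). The day 1 call was lost without ovary library 2 or 4 or uterus library 2, 3 or 5 (1.80 to 2.02, edgeR adjusted p = 0.0514 to 0.083), and the month 6 call without ovary library 5 (2.08, edgeR adjusted p = 0.0533). At month 2 the call was lost without any one of ovary libraries 1, 2, 3 and 5 and uterus libraries 2 to 5 (1.82 to 1.97, edgeR adjusted p = 0.0512 to 0.0781). At month 4 it was lost without ovary library 3 or 4 or any single uterus (1.43 to 2.24, edgeR adjusted p = 0.0542 to 0.17). Its month 6 over day 1 value in the ovary was 0.27 ± 0.58 (edgeR adjusted p = 0.887).

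The other members of the complex were low or shared with the uterus. TEX12, a central element protein, had 4.58 ± 3.31 CPM in the ovary and 3.08 ± 1.94 CPM in the uterus at day 1 (SD, n = 5 each) and was called at no age. SYCE1 had 4 reads in the ovaries and 2 in the uteri, and SYCE3 had 27 reads in the ovaries and 12 in the uteri. Neither could be compared at this depth.

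Of the 3 tested genes of DNA break formation, 1 had a month 6 over day 1 value below 0 in the ovary. MEI4 (NCBI gene 102168451), needed for the breaks in mice, had 1.38, 2.71, 0.894, 0.946 and 1.66 CPM in the day 1 ovaries and 1.49, 1.24, 1.18, 0.819 and 0.97 CPM in the month 2 ovaries. It had 0.992, 1.41, 0.818, 0.959 and 1.04 CPM in the ovaries at month 4 and 0.629, 1.01, 0.395, 0.483 and 1.77 CPM at month 6. The day 1 and month 6 ovaries overlapped, and 3 of the month 6 libraries were below every day 1 library. The uteri, at 0.622 to 2.98 CPM at day 1 and 0.399 to 1.15 CPM at month 6, overlapped the ovaries. The ovary to uterus difference was -0.17 ± 0.42 at day 1 (edgeR adjusted p = 0.846) and 0.18 ± 0.42 at month 6 (edgeR adjusted p = 0.874). In the ovary, month 6 over day 1, MEI4 had -0.74 ± 0.41 (edgeR adjusted p = 0.429), and -0.85 ± 0.42 without day 1 library 3 (edgeR adjusted p = 0.323).

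MEI1, which works with MEI4 in mice, was called higher in the ovary at 2 ages. It had 4.54, 4.56, 0.438, 3.6 and 4.35 CPM in the day 1 ovaries and 2.55, 4.82, 4.06, 1.96 and 7.52 CPM in the month 6 ovaries, against 0.409 to 1.54 CPM in the day 1 uteri and 0 to 0.632 CPM in the month 6 uteri. These calls were at month 2 (2.58 ± 0.74, edgeR adjusted p = 0.0123) and month 6 (3.74 ± 0.79, edgeR adjusted p = 0.00149). At day 1 it missed the threshold at 2.01 ± 0.73 (edgeR adjusted p = 0.0513), and passed it without ovary library 3 (2.29 ± 0.72, edgeR adjusted p = 0.0197) or uterus library 1 (2.31, edgeR adjusted p = 0.0464). At month 4 it passed without ovary library 4 or 5 (2.30 each, edgeR adjusted p = 0.0422 and 0.0361). Within the ovary its month 6 over day 1 value was 0.33 ± 0.58 (edgeR adjusted p = 0.853).

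ANKRD31 was at 1.73 to 27.9 CPM over the ovaries and 4.66 to 43 CPM over the uteri and was called at no age with all libraries. At month 2 it had -1.35 ± 0.56 (edgeR adjusted p = 0.0854), and it was called lower in the ovary with the replicate block, in a fit on the month 2 libraries alone, without ovary library 4 and without both odd libraries (-1.31 to -1.71, edgeR adjusted p = 0.0159 to 0.0497). SPO11, the enzyme that makes the cuts, had 38 reads in the 20 ovaries and 0 in the 20 uteri, which allows a uterus level of up to 0.00293 CPM. Its day 1 ovaries held 0.0811, 0.236, 0, 0 and 0.102 CPM, and its month 6 reads all came from library 4, at 0.253 CPM. Over the groups the ovary level was at least 7.35-fold higher at day 1 and at least 3.99-fold higher at month 6 than the limit of 3 uterus reads.

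Of the strand exchange genes SPATA22 was called higher in the ovary at all 4 ages and MEIOB at none. MEIOB (NCBI gene 102182186) binds single-stranded DNA together with SPATA22. It had 1.4, 2.1, 1.51, 1.21 and 2.4 CPM in the day 1 ovaries and 0.837, 0.171, 0.797, 0.915 and 0.665 CPM in the month 2 ovaries. It had 0.112, 1.11, 1.44, 0.313 and 0.623 CPM in the ovaries at month 4 and 0.79, 0.0807, 0.833, 0.23 and 0.858 CPM at month 6. Every day 1 ovary, library 3 included, lay above every month 6 ovary. The uteri, at 0.265 to 1.78 CPM at day 1 and 0 to 1.02 CPM at month 6, overlapped the ovaries. MEIOB in the ovary, month 6 over day 1, had -1.58 ± 0.66 (edgeR adjusted p = 0.276), and -1.58 ± 0.70 without library 3 (edgeR adjusted p = 0.255). Between the organs it had 1.30 ± 0.83 at day 1 (edgeR adjusted p = 0.319).

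SPATA22, its partner, was nearly absent from the uterus. It had 3.59, 14.6, 0.0526, 1.85 and 8.01 CPM in the day 1 ovaries and 0.419, 2.44, 0.833, 0.345 and 0.273 CPM in the month 6 ovaries, while the 20 uteri held 9 reads, with a highest level of 0.0909 CPM. Ovary day 1 library 3 and ovary month 4 library 5, at 0.0526 and 0 CPM, were the only ovaries in the uterus range. The ratio of summed reads at month 6 was 116, with an exact 95% interval of 31.8 to 967 for counting error. In the ovary, month 6 over day 1, SPATA22 had -2.58 ± 1.16 (edgeR adjusted p = 0.316). DMC1, the recombinase of meiosis, had 49 reads in the ovaries and 44 in the uteri and was not tested.

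Of the 5 crossover genes, TEX11 was called higher in the ovary at all 4 ages and MSH4, HFM1 and MLH3 at none. TEX11 (NCBI gene 102172979), an X-linked crossover factor in mice, had 17.2, 26.5, 1.03, 4.08 and 16.3 CPM in the day 1 ovaries and 7.16, 2.2, 6.64, 10.6 and 2.52 CPM in the month 2 ovaries. It had 4.59, 8.68, 3.62, 2.62 and 6.99 CPM in the ovaries at month 4 and 1.82, 4.14, 2.21, 1.91 and 3.14 CPM at month 6. Day 1 ovaries 1, 2 and 5 lay above all other ovaries, and day 1 library 4 fell just under the highest month 6 ovary. The uteri lay at 0.363 to 1.98 CPM at day 1 and 0.30 to 1.04 CPM at month 6. The ovary to uterus difference was 3.41 ± 0.63 at day 1 (edgeR adjusted p = 0.000257) and 1.92 ± 0.60 at month 6 (edgeR adjusted p = 0.0323). The month 6 call was lost without ovary library 2 or 5 or uterus library 1, 2 or 4 (1.71 to 1.95, edgeR adjusted p = 0.0552 to 0.0921). Within the ovary, month 6 over day 1, it had -2.19 ± 0.63 (edgeR adjusted p = 0.151), and -2.48 ± 0.53 without library 3 (edgeR adjusted p = 0.0266). The reference places PLAC1, PHF6 and HPRT1 within the span of TEX11, so its counts may hold reads of these genes.

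MSH4, HFM1 and MLH3 had age differences near 0 in the ovary and overlapped between the organs. MSH4, which steadies recombination intermediates with MSH5, had 144, 133, 96.8, 88.5 and 127 CPM in the day 1 ovaries and 113, 115, 123, 131 and 129.6 CPM in the month 6 ovaries. The day 1 uteri held 128, 127, 113, 119.7 and 139 CPM and the month 6 uteri 108, 124, 153, 177 and 173 CPM. At month 2 the ovaries held 99.6 to 141 CPM and the uteri 128 to 180 CPM, with most uteri above all ovaries. Day 1 library 3, which lacked DAZL and nearly lacked DDX4, had 96.8 CPM of MSH4, inside the range of the other ovaries. Month 6 over day 1 in the ovary was 0.09 ± 0.13 for MSH4 (edgeR adjusted p = 0.832), 0.33 ± 0.38 for HFM1 (edgeR adjusted p = 0.755) and 0.12 ± 0.18 for MLH3 (edgeR adjusted p = 0.826).

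HFM1, a DNA helicase, ranged over 10.7 to 91.9 CPM in the ovaries and 12.9 to 109.8 CPM in the uteri, and it overlaps a pseudogene in the reference. MLH3, which acts in resolving crossovers and in mismatch repair, ranged over 13.4 to 32.5 CPM in the ovaries and 10.4 to 51.7 CPM in the uteri. MSH5 had 4.1 ± 0.626 CPM in the ovary and 1.64 ± 0.579 CPM in the uterus at month 2 (SD, n = 5 each), where it was called (1.36 ± 0.34, edgeR adjusted p = 0.00467), and it was called at no other age. In the ovary MSH5 had -0.32 ± 0.28 for month 6 over day 1 (edgeR adjusted p = 0.669).

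Of the telomere attachment genes, TERB1 and TERB2 were called higher in the ovary at day 1 and MAJIN at no age. TERB1 (NCBI gene 102175429), which links telomeres to the nuclear envelope for chromosome pairing, had 8.76, 9.35, 0.491, 1.48 and 7.23 CPM in the day 1 ovaries and 4.1, 1.66, 3.45, 3.79 and 1.42 CPM in the month 2 ovaries. It had 2.06, 3.85, 1.07, 1.19 and 0.571 CPM in the ovaries at month 4 and 0.581, 2.52, 1.64, 1.15 and 1.34 CPM at month 6. Day 1 ovaries 1, 2 and 5 exceeded every other ovary, and day 1 library 4 lay inside the month 6 range. The uteri held 0.453 to 0.865 CPM at day 1 and 0.338 to 2.05 CPM at month 6. TERB1 was called higher in the ovary at day 1 (2.86 ± 0.59, edgeR adjusted p = 0.000685) and had 0.30 ± 0.55 at month 6 (edgeR adjusted p = 0.829). In the ovary its month 6 over day 1 value was -1.81 ± 0.65 (edgeR adjusted p = 0.219), and -2.10 ± 0.56 without library 3 (edgeR adjusted p = 0.0581).

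TERB2 and MAJIN, which form a complex with TERB1, were sparse. TERB2 had 179 reads in the ovaries and 0 in the uteri, which allows a uterus level of up to 0.00293 CPM. Its day 1 ovaries held 0.486, 0.687, 0, 0 and 0.829 CPM and its month 4 ovaries 0, 0.839, 0.156, 0 and 0 CPM. Ovaries 1, 2 and 5 at day 1 and library 2 at month 4 carried most of the reads. It was called at day 1, where the ovary level was at least 36.1-fold higher than the limit of 3 uterus reads. The call was lost without ovary library 5 (edgeR adjusted p = 0.0519) or uterus library 2 (edgeR adjusted p = 0.0507). MAJIN had 121 reads in the ovaries and 51 in the uteri and was called at no age.

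In the uterus, month 6 over day 1, 0 of 19 tested members were called, with 1.42% of all genes called. At an unadjusted p under 0.05 there were 6 of the 19, against 17.3% of all genes, which were REC8, STAG3, SYCE2, TEX12, MEI4 and MLH3, all lower at month 6. DESeq2 called 2 of them, STAG3 and TEX12, and 5.03% of all genes, and limma-voom called 0 of the members and 234 of all 18789 genes. STAG3 had 0.239, 0.0375, 0.256, 0.0958 and 0.098 CPM in the month 6 uteri, against 0.473, 0.824, 0.444, 0.311 and 1.0 CPM in the day 1 uteri, with a log2 fold change of -2.06 ± 0.65 (edgeR adjusted p = 0.11). TEX12 had -1.46 ± 0.50 (edgeR adjusted p = 0.138) and REC8 -1.19 ± 0.44 (edgeR adjusted p = 0.17). All 10 cell cycle markers were lower in the month 6 uteri than in the day 1 uteri in the fit, with summed levels of 37.2 to 259 CPM at month 6 and 88.9 to 857 CPM at day 1. Their part in these values was not tested.

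The difference between the organs in their change with age (ovary minus uterus, month 6 over day 1) was called for 0 of 28 members, with 0.234% of all genes called. At an unadjusted p under 0.05 there were 3 of the 28 (HORMAD1, MEIOC and TERB1), near the 11.1% of all genes. DESeq2 called 0 members and 321 of all 20518 genes, and limma-voom called 0 members and 9 of these genes. TERB1 had the lowest p, with -2.57 ± 0.79 (edgeR adjusted p = 0.151). Without ovary day 1 library 3 it was called, with -2.86 ± 0.72 (edgeR adjusted p = 0.0453), along with 0.842% of all genes. MEIOC had -1.73 ± 0.83 (edgeR adjusted p = 0.436). For DDX4 the difference was -0.92 ± 1.25 (edgeR adjusted p = 0.891), with its uterus value at -1.52 ± 0.97.

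Libraries of an age differed from each other across many members at once. Over the 17 members called higher in the ovary at 1 or more ages, day 1 library 2 was the highest of its age in 12 and library 3 the lowest in 16. At month 4 library 2 was the highest in 12 and library 5 the lowest in 13. At month 6 library 2 was the highest in 12 and the lowest in 0. At month 2 libraries 2 and 5 were the lowest in 9 and 6. These counts come from genes that share libraries and are a description.

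**Figure D4:**
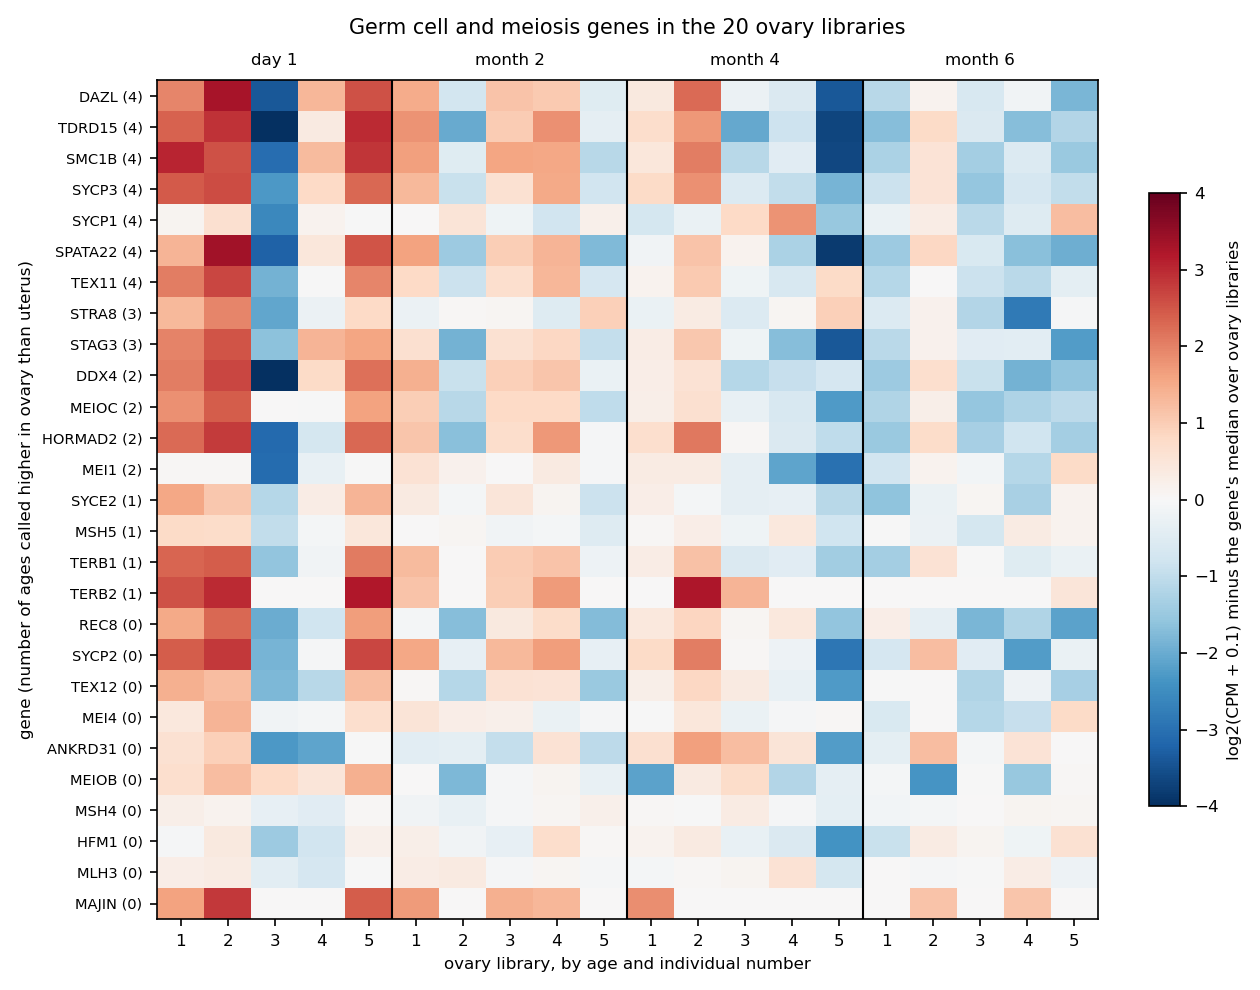
Levels of the 27 tested members in the 20 ovaries, as log2(CPM + 0.1) minus the gene's median over the ovaries, one column per library in order of age; the number after a gene is the count of ages at which it was called higher in the ovary than in the uterus. The columns of day 1 libraries 1, 2 and 5 are red for most genes and those of day 1 library 3 and month 4 library 5 blue, with few differences for MSH4 and MLH3.

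The summed level of the 21 oocyte growth genes with a row was 1071, 1282, 71.0, 408 and 1027 CPM in day 1 ovaries 1 to 5, highest in library 2 and lowest in library 3. The sum was 576, 289.6, 494, 547 and 304 CPM at month 2, lowest in libraries 2 and 5. At month 4 it was 321, 388, 226, 196 and 568 CPM, highest in library 5, which was the lowest in 13 of the 17 members. At month 6 it was 158, 202, 214, 110.4 and 226 CPM, again highest in library 5. In the uteri, which hold no oocytes, the same sum was 85.4 to 217 CPM at day 1, above that of ovary day 1 library 3. In uteri of the later ages it was 67.2 to 139 CPM at month 2, 57.0 to 84.0 CPM at month 4 and 44.8 to 159 CPM at month 6. The sum is thus not particular to oocytes, and the part of other cells in the ovary sum was not tested. KHDC3L, NPM2, KPNA7, OOSP2 and BTG4 were each at 0 in at least 1 of the month 4 ovaries. The egg coat gene ZP3, 1 of the 21 and chosen after its values were seen, differed from that sum. It had 18, 30.0, 15.6, 9.71 and 1.73 CPM in the ovaries at month 4 and 7.14, 18.5, 5.17, 5.96 and 8.73 CPM at month 6, highest in library 2 at both ages and lowest in library 5 at month 4.

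Granulosa cell markers were not highest in the library that was highest in most members at day 1, month 4 and month 6. Their summed level was 66.8, 113, 6.55, 1109 and 502 CPM in day 1 ovaries 1 to 5. Library 4, with the highest sum, had 6.25 CPM of DDX4 and 12.8 CPM of TDRD15, below libraries 1, 2 and 5. The sum was 216, 176, 774, 267 and 1272 CPM in the month 6 ovaries, where library 2, the highest in most members, had the lowest sum. The receptor gene FSHR was at 39.8, 2.91, 157, 31.3 and 129 CPM in these 5. For month 6 over day 1, 0 of 10 granulosa markers were called and their median log2 fold change was 0.55. Over the same comparison 5 of 5 adipocyte markers tested were below 0 (median -4.39, and -0.46 without day 1 library 3), as were 7 of 10 uterus markers (median -1.26) and 10 of 10 cell cycle markers (median -0.75), and edgeR called 0 of these. An unadjusted p under 0.05 was found for 0 granulosa, 5 adipocyte, 2 uterus and 3 cell cycle markers, against 14.3% of all genes. Without day 1 library 3 it was found for 0 adipocyte markers. The uterus markers were uneven between ovaries of an age. Their summed level was 29.1 to 156 CPM in the day 1 ovaries and 66.6, 54.6, 210, 296 and 14.2 CPM at month 4. It was 314, 20.5, 32.6, 254 and 22.1 CPM in the month 6 ovaries, against 380 to 659 CPM in the month 6 uteri. The part of these cell types in the members' values was not tested.

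Related gene lists were set beside the members. Of 61 other germ line and meiosis genes, 47 had a row and 41 were tested in the ovary. For month 6 over day 1, 38 of the 41 were below 0, with a median of -1.48, and 0 were called. An unadjusted p under 0.05 was found for 25, against 14.3% of all genes. Without day 1 library 3, 6 were called lower, which were MAEL, TDRD6, PIWIL3, MOV10L1, PSMC3IP and PRR19, where 1.44% of all genes were called lower. MAEL and MOV10L1, of the piRNA pathway that silences transposons, had -2.43 ± 0.81 (edgeR adjusted p = 0.203) and -2.19 ± 0.79 (edgeR adjusted p = 0.227) with all libraries. PSMC3IP, a helper of DMC1 in strand exchange, had -1.48 ± 0.38 (edgeR adjusted p = 0.123). Against the uterus, 21 of 42 of these genes were called higher in the ovary at day 1, 20 at month 2, 16 at month 4 and 13 at month 6. The shares of all genes called higher in the ovary were 10.3%, 9.79%, 6.92% and 6.05% at these ages.

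Of 24 oocyte growth genes 21 had a row, and all 20 tested in the ovary were below 0 for month 6 over day 1, with a median of -2.70. EdgeR called 0 of them, with an unadjusted p under 0.05 for 18, against 14.3% of all genes. GDF9, the growth factor that oocytes send to granulosa cells, had the lowest adjusted p of those named here, with -2.52 ± 0.56 (edgeR adjusted p = 0.0803). Without day 1 library 3, 8 were called lower, which were GDF9, BMP15, ZP2, ZP3, ZP4, NLRP14, TLE6 and PADI6, where 1.44% of all genes were called lower. Against the uterus 19 of 20 were called higher in the ovary at day 1, 19 at month 2, 19 at month 4 and 17 at month 6. Of all genes, 10.3%, 9.79%, 6.92% and 6.05% were called higher at these ages.

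The mitotic counterparts of the members, such as the cohesins RAD21 and SMC1A, had a median age difference near 0. Of 15 tested, 11 were below 0 for month 6 over day 1 in the ovary, with a median of -0.17, and 0 were called. An unadjusted p under 0.05 was found for 2, against 14.3% of all genes. RAD21 had -0.23 ± 0.18 (edgeR adjusted p = 0.597) and SMC1A -0.02 ± 0.24 (edgeR adjusted p = 0.984).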

How the data were processed

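RNA of 20 ovaries and 20 uteri was sequenced, 5 libraries per organ and age. The authors deposited a table of read counts per gene, not normalized. The tools named are RSEM 1.3.0, StringTie 1.3.3b, HISAT2 and fastp 0.23.1, per the submitters' processing notes, which state no role for them. Neither a genome build nor a strand setting is stated in the labels used here. Row numbers were matched to RefSeq symbols (28910 of 30049 rows carry an NCBI gene number, 1139 are loci assembled from the reads). All 40 columns were assigned to a sample by name. Promoter, protein and gene length information was not used here.

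From the deposited counts, CPM was computed on library totals (31925520 to 62703770 counts). Among 80 pairs of libraries of the same group, the counts differed by a chi-square of at least 83.5 per degree of freedom, so no library repeated another of its group. Libraries of different groups were not compared in this way. Differences were tested with edgeR 4.0.16 in R 4.3.3 (TMM, filterByExpr, robust quasi-likelihood F test), fitted on the 20 libraries of an organ for age and on all 40 between organs, 11 comparisons in all. P-values were adjusted over all genes tested by Benjamini-Hochberg. The SE is the size of the log2 fold change over the square root of F. In the ovary 27 of the 33 members passed the filter, in the uterus 19, and over both 28. Intervals for ratios of reads are exact and cover counting error only, as do limits from 3 counts. On simulated counts of the comparison of month 6 with day 1 ovaries, a log2 change of 2 was called for 100% of 100 changed genes at a dispersion of 0.1 and for 24% at 0.4, among 19593 and 19708 genes. The changed genes were drawn only from those above a minimum mean level in the ovary, and all genes of a run had the same dispersion. These rates need not hold for members with lower counts or a wider spread.

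In full, for every library, the text gives the member with the lowest adjusted p for month 6 over day 1 in the ovary within each role. The other members shown in single libraries were chosen after their values were seen. Outside the members, genes come from lists of other germ line genes, oocyte growth genes, mitotic counterparts and markers of granulosa, uterus, adipocytes and the cell cycle. The members and the lists were chosen with earlier results of these data known. Alternatives were DESeq2 1.42.0, limma-voom (limma 3.58.1), DESeq2 size factors, no count filter, no minimum fold, the number of the individual as a block, fits on the groups compared alone and leaving out libraries.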

Additional observations from a re-analysis of the deposited data

Results flagged for a closer look

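In 12 members (the 8 given for every library, TDRD15, SYCP1, MSH4 and RAD21L1), 85 groups of 5 libraries were searched for a library far from its group, by Dixon's ratio of gap to range above 0.71. That cutoff gives about 1 in 20 by chance only for independent groups with normally distributed values. These groups share libraries, and some of the members were chosen after their values were seen. The count is therefore a description and is not set against chance. Such a library was found in 10 groups, in each case the highest of its group. No explanation was tested.

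4 of the 10 lay in library 2 of the ovary at month 6, where DDX4 was at 5.93 CPM with the next ovary at 1.95, MEIOC at 4.32 with the next at 1.72, SYCP3 at 0.989 with the next at 0.368 and TDRD15 at 17.0 with the next at 6.6. In the uterus at month 6, library 3 had 6.03 CPM of MEIOC, with the next uterus at 1.12, and 1.06 CPM of DDX4, with the next at 0.399. RAD21L1 was at 2.93 CPM in uterus library 2 of the same age, with the next at 0.329. In the uterus at month 4, library 5, the library with the low uterus markers, had 3.18 CPM of DDX4, with the next at 0.658. At month 2, SYCE2 was at 1.29 CPM in uterus library 2, with the next at 0.619, and MEIOB at 0.657 CPM in uterus library 4, with the next at 0.283.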

How the results depend on the processing

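The counts of members called kept within 1.5 times under no minimum fold, DESeq2 size factors and no count filter in all 11 comparisons. With no count filter RAD21L1 was called lower in the ovary at month 6 (edgeR adjusted p = 0.0197). For month 6 over day 1 in the ovary, DESeq2 called 3 members in place of 0, and leaving out single libraries gave 0 to 3, with 3 only without day 1 library 3. In the uterus DESeq2 called 2 in place of 0. Between the organs, limma-voom called 4 at month 4 and 3 at month 6, in place of 9 each. Fits on the 2 groups alone called 5 at day 1 and 3 at month 4, in place of 14 and 9. Leaving out single libraries gave 12 to 16 at day 1, 12 to 14 at month 2, 6 to 12 at month 4 and 7 to 9 at month 6. The counts of all genes called higher in the ovary also moved. At day 1 they were 1830 of 20729 without ovary library 2 (12 members) and 2339 of 20785 without ovary library 3 (16 members). At month 2 they were 1701 of 20781 without ovary library 3 (12 members). At month 4 they were 1338 of 20789 without ovary library 5 (12 members). At month 6 they were 1124 of 20792 without ovary library 2 (7 members). The difference between the organs in their change with age gave 0 to 1, and 1 without ovary day 1 library 3 and uterus month 4 library 5 together (TERB1). The causes were not tested.

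Whether an ovary and a uterus of one number came from one animal is not given in the sources used here, and the values do not settle it. Deviations of the ovary and uterus of the same number correlated above 0.1 in 9 of 20 pairs (median 0.064, -0.160 to 0.303). Those of ovaries of the same number and different ages did so in 9 of 30 (median -0.059, -0.415 to 0.537). Libraries of unlike numbers were not correlated as a reference, so these values cannot show whether the numbers pair the libraries. With the number as a replicate block, 8 members were called between the organs at day 1 in place of 14, 13 at month 2 (ANKRD31 lower in the ovary), 7 at month 4 and 6 at month 6, and 0 in the ovary for month 6 over day 1. Of all 20518 genes tested in that fit between the organs, 1488 were called higher in the ovary at day 1. There were 1867 at month 2, 851 at month 4 and 979 at month 6.

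Values near 0 changed sign in some fits. For month 6 over day 1 in the ovary these were MSH4 (-0.011 to 0.14), MLH3 (-0.016 to 0.19) and SYCP1 (-0.22 to 0.47) on leaving out single libraries. Between the organs at day 1 they were ANKRD31 (-0.30 with limma-voom, -0.32 with the replicate block, -0.30 to 0.36 without single libraries), HFM1 (-0.11 to 0.28) and MEI4 (-0.47 to 0.11), and at month 6 MEIOC (-0.27 to 1.41). Depth limits SYCE1, SYCE3, SPO11, DMC1, RAD21L1 and HORMAD1, which held from 4 to 85 reads each over the 20 ovaries.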

Other observations

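The ovary highest in SYCP1 was also the highest in CYP19A1, the aromatase gene of granulosa cells, at months 2, 4 and 6, and was not at day 1. This was noticed after the values were seen and is given as values alone. CYP19A1 is 1 of the 10 granulosa markers. Their summed level was highest in the same ovary as SYCP1 at months 4 and 6 and in another ovary at day 1 and month 2. At month 2 the sum was 570, 583, 635, 586 and 554 CPM in ovaries 1 to 5. CYP19A1 was at 3.99, 9.7, 0, 23.1 and 17.8 CPM in the day 1 ovaries, where SYCP1 was at 5.47, 7.93, 0.771, 5.64 and 4.96 CPM. It was at 12.9, 24, 13.1, 19.9 and 10.6 CPM in the month 2 ovaries, where SYCP1 was at 5.14, 7.2, 4.5, 2.95 and 5.88 CPM. It was at 16.5, 16, 33.7, 843 and 34.3 CPM in the month 4 ovaries, where SYCP1 was at 3.05, 4.19, 8.85, 17.7 and 1.71 CPM. It was at 8.06, 1.86, 20.8, 7.06 and 374 CPM in the month 6 ovaries, where SYCP1 was at 4.18, 6.22, 2.32, 3.5 and 12 CPM. In month 4 library 4 and month 6 library 5 DDX4 was at 1.9 and 1.15 CPM and TDRD15 at 5.48 and 4.31 CPM, within the range of the other ovaries of their ages.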
